A study of Homo sapiens with 20 samples.

Results

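The induction of the K451R mutant of EHMT1 was examined in LNCaP, an androgen-responsive human prostate cancer cell line. The comparison is K451R Dox against K451R Veh, 4 of the 20 samples of the series and 4 of the 16 columns of the stable-line count table. The members were taken by their labels alone. Each stable line carried an EHMT1 open reading frame with a V5 tag in pLIX_403, a lentiviral vector whose promoter is switched on by doxycycline. The lines expressed WT EHMT1 or EHMT1 with the K450R, K451R or K450RK451R change, and each was either left without doxycycline (Veh, labelled untreated) or given 0.25 µg/mL doxycycline for 2 days (Dox). All lines kept their own EHMT1 gene and had been infected with virus and selected with puromycin. Whether a line was 1 clone or a pool is not given in the sources used here. A line without the EHMT1 insert was not analysed here, so the effect of doxycycline itself and that of the induced EHMT1 cannot be told apart within K451R.

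EHMT1, also known as GLP, is a lysine methyltransferase that works as a heterodimer with EHMT2, also known as G9a, and places mono- and dimethyl marks on lysine 9 of histone H3. These marks are read by heterochromatin protein 1 and are associated with gene repression, although both enzymes also take part in gene activation. Methyltransferases of this kind methylate proteins other than histones, themselves included, and an arginine put in place of a lysine keeps the positive charge but cannot be a substrate for lysine methylation. The K451R change replaces the second of a pair of neighbouring lysines.

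The stretch of EHMT1 coding sequence that holds the changed codon is shown because it is what the K451R line differs in. It was read from GRCh37 through the coding exons of EHMT1-203 in GENCODE 44, a transcript of 1298 codons before the stop. The codon changed in K451R is AAG and lies at chr9:140648725-140648727 on the plus strand, in exon 8, and the codon before it is also AAG. The run covers codons 441 to 461 over 2 exons, with the changed codon in capitals as it stands in the genome before mutation.
EHMT1-203, codons 441 to 461: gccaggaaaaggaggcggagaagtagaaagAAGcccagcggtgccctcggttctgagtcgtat
Which codon for arginine the mutant carries is not given in the sources used here.

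Total RNA was sequenced and the deposited values are reads counted per Ensembl gene. The columns numbered 1 and 2 of a condition differed by no more than counting noise: chi-square divided by its degrees of freedom was 0.995 to 1.02 over 12254 to 13326 genes, so they were summed and counted as 1 library. K451R Veh held 8490600 counts and K451R Dox 11599349, within the range of 8436791 to 12407739 over the 8 conditions. Levels are given in CPM, read counts scaled to a common library size with TMM factors. With 1 library a side, Dox against Veh in K451R has no replicate check and no p-value. Intervals are exact 95% intervals of the log2 ratio of Dox over Veh, and they cover counting error only. The reads carry no molecular identifiers. A gene was called past 1.5-fold among the 9209 genes with at least 200 counts over both libraries. A floor of 3 counts amounted to 0.363 CPM in Veh and 0.243 CPM in Dox.

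The induced gene was examined first. EHMT1 (chromosome 9, 140513444 to 140764468) stood at 71.5 CPM in Veh and 723 CPM in Dox of K451R, a log2 ratio of 3.34 (3.22 to 3.46). It stood at 76.2, 84.03 and 88.6 CPM in Veh of WT, K450R and K450RK451R, and at 797, 840.1 and 659 CPM in their Dox libraries. All 4 Dox libraries lay above all 4 Veh libraries. The K451R ratio lay between the ratios of the other lines, and its difference from their mean was 0.14 on the log2 scale, which did not pass edgeR's quasi-likelihood test (adjusted p = 1). The count table does not separate reads of the insert from those of the cells' own gene. EHMT2, the partner of EHMT1, stood at 83.6 CPM in Veh and 83.3 CPM in Dox, a log2 ratio of -0.01 (-0.15 to 0.14). The heterochromatin protein 1 genes CBX5, CBX3 and CBX1, whose products read methylated lysine 9 of histone H3, had log2 ratios of 0.05, -0.04 and -0.06.

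**Figure D1:**
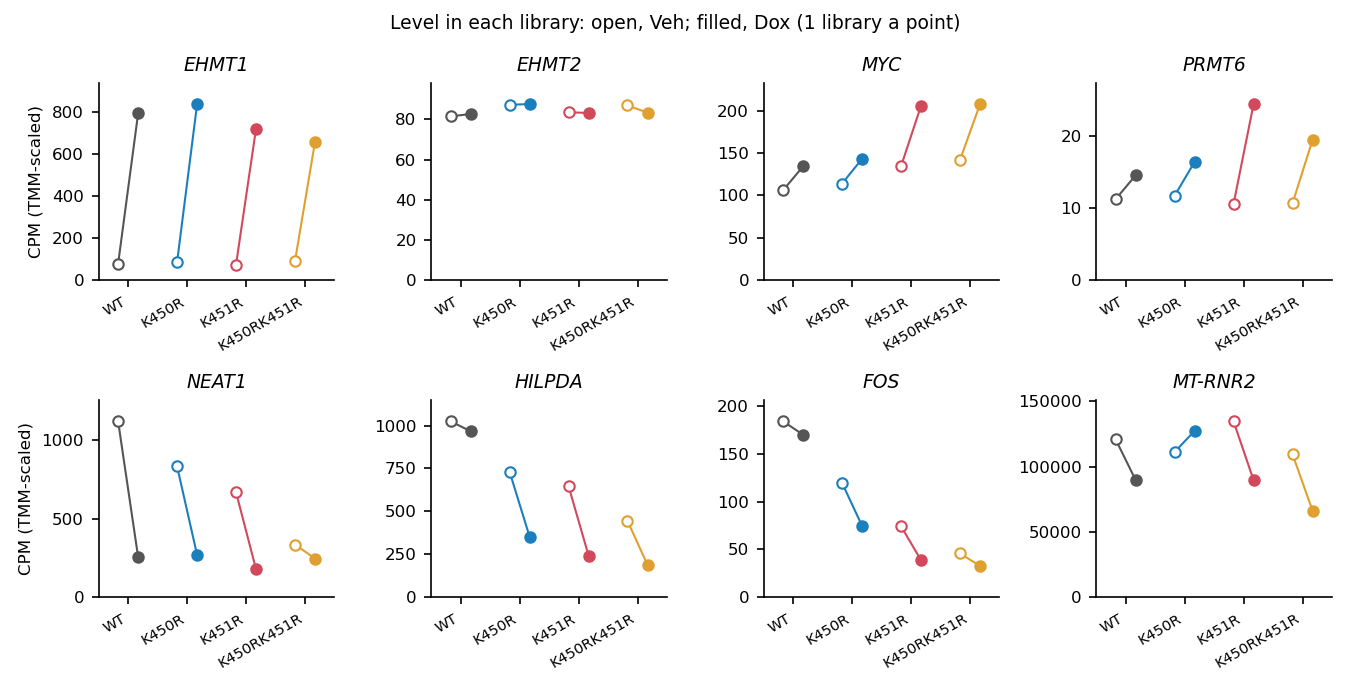
TMM-scaled CPM of 8 genes in each of the 8 stable-line libraries, with open points for Veh, filled points for Dox and a line joining the libraries of a line; each point is 1 library, so no error bar is drawn. EHMT1 stands at 659 to 840 CPM in the 4 Dox libraries, NEAT1 is lower in Dox of every line, and HILPDA and FOS differ little between the WT libraries.

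Of the 9209 genes, 112 (1.22% of those tested) were higher and 144 (1.56%) were lower past 1.5-fold in K451R Dox, and for all 256 (2.78%) the counting interval lay on 1 side of no change. Past 2-fold, 11 genes (0.119%) were higher and 22 (0.239%) lower. Scaling by total counts moved the median log2 ratio of all genes by 0.13, from -0.01 to 0.12, and turned the split into 295 higher and 84 lower. Ratios below are therefore relative to the TMM scale. The genes just inside the threshold were RWDD2B (0.59) and LPIN3 (-0.59), and those just outside were TMEM187 (0.58) and RBAK (-0.58). The higher genes were mostly of low count: with at least 1000 counts only 5 were higher, against 37 lower. The K451R Veh library lay below each other Veh library for 47.3% of the higher genes, against 27.3% of all genes, and above each for 47.2% of the lower genes, against 25.4% of all. The K451R Dox library lay above each other Dox library for 60.7% of the higher genes, against 21.4% of all. It lay below each for 46.5% of the lower genes, against 22.3% of all. The ratio that chose these genes uses both libraries, so the choice itself moves both sets of shares. With the geometric mean of the other lines' Veh libraries as control, only 48 of the 112 higher and 71 of the 144 lower genes were past 1.5-fold in the same direction. Of the 65 named genes past 1.5-fold, 26 lost the call under that control. The other lines, each taken by the same rule, had 42 higher and 120 lower genes in WT, 106 and 88 in K450R, and 194 and 139 in K450RK451R.

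**Figure D2:**
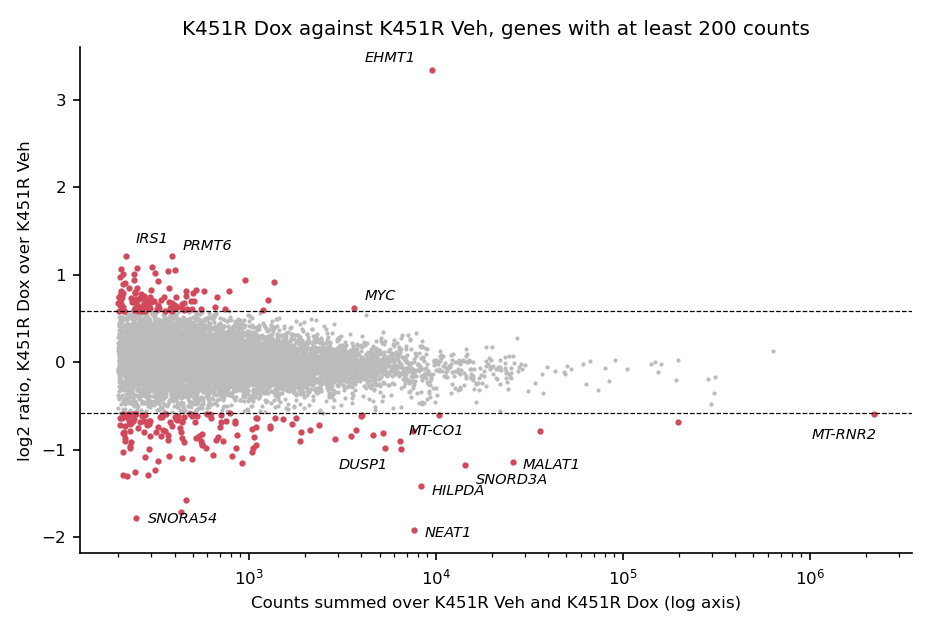
Log2 ratio of K451R Dox over K451R Veh (vertical axis) against the counts summed over both libraries (horizontal log axis), 1 point a gene, with dashed lines at 1.5-fold and the genes past it in red. EHMT1 stands alone at 3.34, the other higher genes lie mostly at low counts, and the lower genes with many counts include NEAT1, HILPDA, MALAT1 and SNORD3A.

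The highest ratios after EHMT1 belonged to genes with few counts. IRS1, which couples the insulin and IGF receptors to PI3-kinase, stood at 5.94 CPM in Veh and 13.8 CPM in Dox, a log2 ratio of 1.22 (0.75 to 1.71). PRMT6, an arginine methyltransferase that modifies histone H3, stood at 10.5 CPM in Veh and 24.4 CPM in Dox, a log2 ratio of 1.21 (0.86 to 1.57). Its K451R Dox library was the highest of the 8, and the ratios in WT, K450R and K450RK451R were 0.38, 0.49 and 0.87. PPRC1, a coactivator of nuclear genes for mitochondrial proteins, had a log2 ratio of 1.08 (0.70 to 1.48). PPP1R10, a targeting subunit of protein phosphatase 1 in the nucleus, stood at 11.9 CPM in Veh and 24.7 CPM in Dox, a log2 ratio of 1.06 (0.72 to 1.40), while the ratios of the other lines were -0.35, 0.01 and 0.31. BBS10 and MTHFSD had log2 ratios of 1.06 and 1.01. WDR81 and EPC2, the latter a relative of the EPC1 subunit of the NuA4 acetyltransferase, had log2 ratios of 1.03 and 0.97, and LRRC26, an auxiliary subunit of the BK potassium channel, 1.01 (0.58 to 1.45). Each of these 9 protein-coding genes also had more CPM in K451R Dox than the geometric mean of the Veh libraries of the other lines, by log2 differences from 0.44 for EPC2 to 1.29 for PPRC1, although EPC2 and MTHFSD (0.58) were then not past 1.5-fold. The pseudogenes RNPS1P1 and RP11-390F4.8 were among the 12 highest ratios too, at 1.08 (0.28 against the other Veh libraries) and 1.04, and their reads could be shared with near-identical copies. RP11-390F4.8 was low in K451R Veh, at 11.03 CPM against 26.04, 31.9 and 23.6 CPM in the other Veh libraries, and its K451R Dox library lay below their mean, by -0.25 on the log2 scale.

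Other higher genes have known roles in growth, androgen action and chromatin. MYC, a transcription factor that drives growth, had 1109 and 2541 counts and stood at 134 CPM in Veh and 206 CPM in Dox, a log2 ratio of 0.62 (0.52 to 0.72). The other lines had MYC ratios of 0.34, 0.33 and 0.55, so that Dox lay above Veh in each line, and K451R Dox (206 CPM) and K450RK451R Dox (208 CPM) were the highest libraries. PMEPA1, an androgen- and TGF-beta-induced gene that restrains SMAD signalling, stood at 43.3 CPM in Veh and 81.9 CPM in Dox, a log2 ratio of 0.92 (0.75 to 1.10), against 0.14, 0.99 and 0.57 in WT, K450R and K450RK451R. UGT2B15, which conjugates androgens to glucuronic acid, stood at 17.2 CPM in Veh and 30.6 CPM in Dox with a log2 ratio of 0.83, and belongs to a family of similar genes among which reads could be split. POLR1B, the second largest subunit of RNA polymerase I, stood at 15.5 CPM in Veh and 27.2 CPM in Dox (log2 ratio 0.81), and SUV39H2, a methyltransferase of histone H3 lysine 9, at 6.91 CPM in Veh and 12.2 CPM in Dox (log2 ratio 0.82). The ratios of the other lines ran from -0.45 to 0.37 for SUV39H2 and from -0.15 to 0.41 for POLR1B. DRAIC, a long noncoding RNA listed as RP11-279F6.1, had a log2 ratio of 0.62 (0.25 to 0.99). SUV39H2 was lowest in K451R Veh of the 4 Veh libraries, and K450RK451R Veh (12.95 CPM) lay above K451R Dox. Against the other Veh libraries SUV39H2, UGT2B15 and DRAIC were not past 1.5-fold, at 0.41, 0.44 and 0.40. 

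The lowest ratio was that of NEAT1, the long noncoding RNA that forms the core of nuclear paraspeckles. It had 5514 and 2174 counts and stood at 668 CPM in Veh and 176 CPM in Dox of K451R, a log2 ratio of -1.92 (-1.99 to -1.85). In the other lines NEAT1 stood at 1120.3 and 253 CPM in Veh and Dox of WT, 834 and 268 CPM in K450R, and 334 and 245 CPM in K450RK451R. K451R Dox was the lowest of the 8 libraries, and the 4 Dox libraries did not overlap the 4 Veh libraries. MALAT1, an abundant RNA of nuclear speckles that lies beside NEAT1 on chromosome 11, stood at 1862 CPM in Veh and 843 CPM in Dox, a log2 ratio of -1.14 (-1.18 to -1.11), and K451R Dox was again the lowest library. Of the 25 genes tested in a list of nuclear long noncoding RNAs and splicing kinases, 6 were lower past 1.5-fold and 0 higher, 22 had negative ratios, and the median was -0.35 against -0.01 over all genes. Of all 9209 genes, 1.56% were lower past 1.5-fold and 4728 had negative ratios. The other 4 lower members were CLK1, a kinase of SR splicing proteins (-0.77), its fellow splicing-related genes CCNL1 (-0.85) and LUC7L3 (-0.62), and RSRP1, listed as C1orf63 (-0.85). LUC7L3 was not past 1.5-fold against the other Veh libraries (-0.31). The list medians of WT, K450R and K450RK451R were -0.38, -0.25 and -0.14.

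Some genes of the hypoxia response were lower in K451R Dox. Of 29 tested, 5 were lower past 1.5-fold (3 with total-count scaling), against 1.56% of all genes, and 0 were higher. Ratios were negative for 24 of the 29, against 4728 of all 9209 genes. The median was -0.23, against 0.00, -0.09 and -0.31 in WT, K450R and K450RK451R. ANKRD37 stood at 368 CPM in Veh and 187 CPM in Dox, a log2 ratio of -0.98 (-1.06 to -0.90). PFKFB3, which makes the activator of phosphofructokinase, stood at 492 CPM in Veh and 286 CPM in Dox, a log2 ratio of -0.78 (-0.85 to -0.72). The repressor BHLHE40, the oxygenase JMJD6 and the sterol sensor partner INSIG2 had log2 ratios of -0.60, -0.77 and -0.64, and INSIG2 was not past 1.5-fold against the other Veh libraries (-0.49). HILPDA, a hypoxia-induced lipid droplet protein outside this list, stood at 646 CPM in Veh and 242 CPM in Dox, a log2 ratio of -1.42 (-1.48 to -1.35), the fifth lowest ratio of all. In WT, HILPDA differed by -0.08, with 1024 CPM in Veh and 966 CPM in Dox, and in K450R and K450RK451R by -1.06 and -1.24. VEGFA, the angiogenic growth factor, was just under the threshold, with 1326 CPM in Veh and 900.3 CPM in Dox and a log2 ratio of -0.56 (-0.60 to -0.52). NDRG1, DDIT4 and P4HA1, the other most counted members, had ratios of -0.14, -0.36 and -0.23. None of 20 glycolysis genes was past 1.5-fold, and 15 had negative ratios. Their median was -0.12 against -0.01 over all genes, with -0.20 for GAPDH and 0.00 for ENO1. Total-count scaling moves this median together with that of all genes.

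Immediate early genes answer growth factors and stress within minutes. Of 14 tested, 6 were lower past 1.5-fold, against 1.56% of all genes, and 0 were higher. Ratios were negative for 11 of the 14, against 4728 of all 9209 genes. The median was -0.50, against -0.09, -0.27 and -0.45 in WT, K450R and K450RK451R. DUSP1, a phosphatase of MAP kinases, stood at 452 CPM in Veh and 228 CPM in Dox, a log2 ratio of -0.99 (-1.06 to -0.92). JUNB, a subunit of AP-1, stood at 304 CPM in Veh and 170.3 CPM in Dox, a log2 ratio of -0.83 (-0.92 to -0.75). FOS, its partner, stood at 74.3 CPM in Veh and 38.5 CPM in Dox, a log2 ratio of -0.95 (-1.12 to -0.77). FOS levels also differed between lines without doxycycline, from 45.6 CPM in K450RK451R Veh to 184 CPM in WT Veh, and the WT Dox library at 170.2 CPM lay above K451R Veh. DUSP5 had the lowest ratio of the list, with 15.99 CPM in Veh and 6.57 CPM in Dox (log2 ratio -1.28), and the orphan nuclear receptor NR4A1 and KLF6 had ratios of -0.75 and -0.67. JUN, JUND and ATF3, below the threshold, had ratios of -0.47, -0.45 and -0.54. DUSP4, another MAP kinase phosphatase, went the opposite way, with 162 CPM in Veh and 235 CPM in Dox and a log2 ratio of 0.54 (0.44 to 0.63).

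Some stress and clock genes stood out singly. HSPA1B, an inducible HSP70, stood at 66.4 CPM in Veh and 29.9 CPM in Dox, a log2 ratio of -1.15 (-1.34 to -0.96), whereas the median of the 13 heat shock genes tested was -0.13, and the most counted, HSP90AB1 and HSPA8, had ratios of -0.17 and 0.01. HSPA1B has a near-identical copy, HSPA1A, with which reads could be shared. PPP1R15A, or GADD34, a subunit of the phosphatase of eIF2-alpha, stood at 45.1 CPM in Veh and 21.7 CPM in Dox, a log2 ratio of -1.06 (-1.29 to -0.83), and was the only one of 27 genes of the ATF4 amino acid response list past 1.5-fold. The list median was 0.04, and ATF4 itself had a ratio of -0.35. Of 12 clock genes, PER1 (-0.65), NR1D1 (-0.72) and BHLHE40, already counted in the hypoxia list, were lower past 1.5-fold, against 1.56% of all genes. CLOCK had a ratio of 0.12. The median of the 12 was -0.11, and 9 had negative ratios, against 4728 of all 9209 genes. ELF3, an ETS factor of epithelial cells, stood at 243 CPM in Veh and 142 CPM in Dox, a log2 ratio of -0.77 (-0.86 to -0.68), while the other 9 prostate lineage factors were not past 1.5-fold. MXD1, which competes with MYC for its partner MAX, had a log2 ratio of -0.84 (-1.14 to -0.53), against 0.18, -0.18 and -0.69 in WT, K450R and K450RK451R. Of 11 MYC network genes tested, MXD1 alone was lower and MYC alone higher past 1.5-fold, against 1.56% and 1.22% of all genes. The list median was -0.07, and MXD4, MXI1, MGA and MLX had ratios of 0.18, -0.23, -0.04 and -0.11. IRF1 had a log2 ratio of -0.62.

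**Figure D3:**
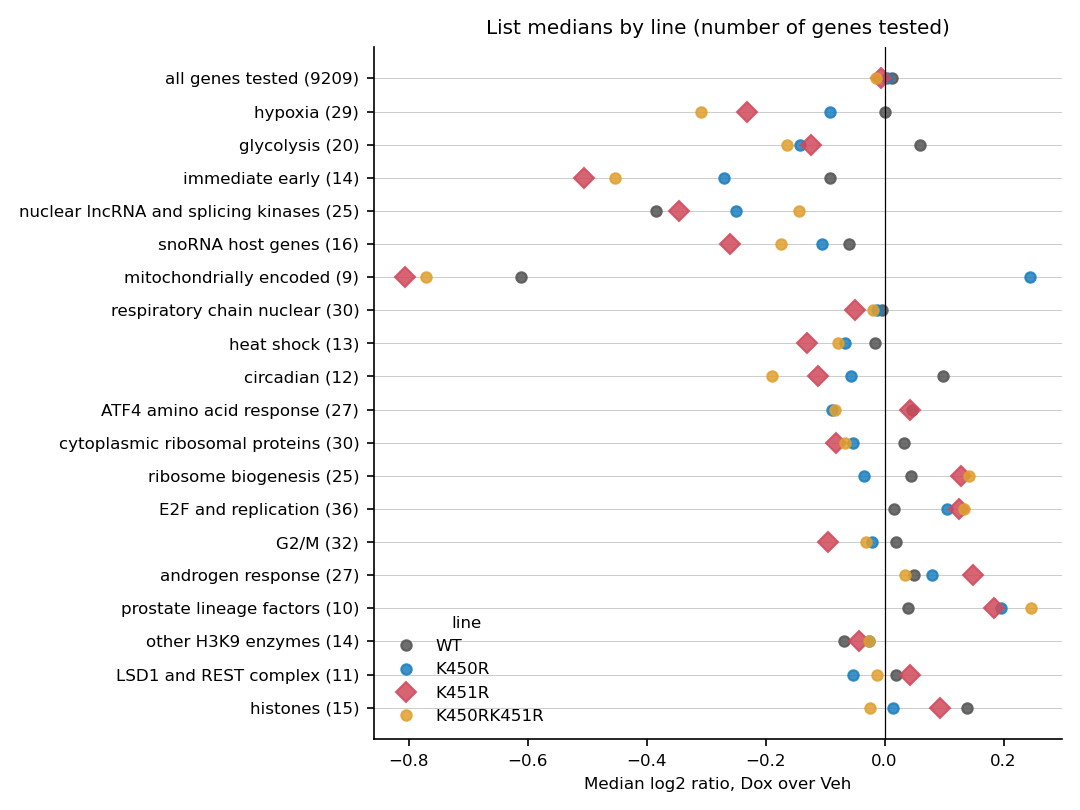
Median log2 ratio of Dox over Veh of 19 gene lists and of all genes tested (horizontal axis) in the 4 lines, with red diamonds for K451R; the number of genes is in brackets. The K451R medians lie lowest for mitochondrially encoded genes at -0.81 and immediate early genes at -0.50, and the K450R median of mitochondrially encoded genes is above 0 at 0.24.

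All 9 tested genes encoded by the mitochondrial genome were lower past 1.5-fold in K451R Dox, against 1.56% of all genes. Their log2 ratios ran from -0.99 (MT-ND1) to -0.59 (MT-RNR2), with a median of -0.81. Total-count scaling moved all ratios up by 0.13. MT-RNR1 and MT-CYB, at -0.68 and -0.63 on the TMM scale, were then not past 1.5-fold, and neither was MT-RNR2. MT-RNR2, the large mitochondrial ribosomal RNA, stood at 134692 CPM in Veh and 89547 CPM in Dox, and MT-CO1, a subunit of cytochrome oxidase, at 434 CPM in Veh and 233 CPM in Dox (-0.90, -0.97 to -0.83). Of the 15 genes written, 6 had fewer than 200 counts. The mitochondrial rRNAs held 14.3% of all counts in K451R Veh, the highest share of the 8 libraries, and 10.3% in K451R Dox, within the range of 7.99% to 13.6% of the other 6. Against the mean of the Veh libraries of the other lines, 1 of the 9 genes was lower past 1.5-fold in K451R Dox, and the median was -0.39, while the genes stood higher in K451R Veh than in the other Veh libraries by a median of 0.42. The other lines did not share 1 direction, with medians of -0.61, 0.24 and -0.77 in WT, K450R and K450RK451R. None of 30 nuclear genes of the respiratory chain was past 1.5-fold, and their median was -0.05.

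The K451R Veh library stood apart in its short RNA genes, and the values bear on most of the lower genes among them. Annotated snoRNA genes, whose RNAs guide chemical changes or cleavage of ribosomal and other RNAs, took 0.241% of counts in K451R Veh and 0.136% to 0.159% in the other 7 libraries. Of 17 snoRNA genes tested, 11 were lower past 1.5-fold, against 1.56% of all genes, 16 had negative ratios, and the median was -0.96. However, 13 of 17 stood higher in K451R Veh than in each other Veh library, as did 25.4% of all genes. Measured against the Veh libraries of the other lines, 3 of the 17 were lower past 1.5-fold in K451R Dox and the median was -0.20. The 3 were SNORA71D (-0.68), SCARNA7 (-0.68) and SCARNA21 (-0.61), and SCARNA7 lay within the other Veh libraries in K451R Veh. In WT, K450R and K450RK451R the ratios of Dox over Veh were -0.59, -0.51 and -0.35 for SCARNA7 and -0.50, -0.65 and -0.61 for SCARNA21. A total RNA library made for longer molecules recovers such short RNAs in part, and the part of RNA size or recovery in these values was not tested. Sequences are shown for SNORA54 and for the microRNA loci because they are among the genes whose Dox effect in K451R differed from that of the other lines in the test of the 4 lines. They were read 5′ to 3′ from GRCh37, except the mature miR-3648, which is from RefSeq on GRCh38.p14 (chr21:8987026-8987046, plus strand). Capitals mark the ACA box in SNORA54, 3 bases before the end, and bases 2 to 8, the seed, in miR-3648. Only the letters were searched, on the strand of the gene.
SNORA54, chr11:2985001-2985123, minus strand: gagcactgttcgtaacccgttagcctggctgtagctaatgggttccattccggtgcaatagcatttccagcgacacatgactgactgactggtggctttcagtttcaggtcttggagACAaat
MIR3687, chr21:9826203-9826263, plus strand: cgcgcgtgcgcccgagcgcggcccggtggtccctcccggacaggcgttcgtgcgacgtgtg
miR-3648, mature: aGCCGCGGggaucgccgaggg

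SNORA54 lies in an intron of NAP1L4 and SNORD15B in an intron of RPS3, and neither host was lower past 1.5-fold. SNORA54, a guide of pseudouridylation, had 173 and 75 counts and stood at 20.96 CPM in Veh and 6.09 CPM in Dox, a log2 ratio of -1.78 (-2.19 to -1.38), while NAP1L4 stood at 93.3 and 94.7 CPM (log2 ratio 0.02). SNORD15B stood at 18.4 CPM in Veh and 7.71 CPM in Dox, a log2 ratio of -1.26 (-1.64 to -0.88), while RPS3 stood at 1063 and 1027 CPM (log2 ratio -0.05). The 12 lowest ratios in K451R also held SNORD13 (-1.57), SCARNA22 (-1.29), SNORA71D (-1.29), SNORA80B (-1.23), SNORD3A (-1.18) and the gene listed as SNORA76 (-1.71), which GENCODE 44 names SNHG25, a host gene. For SNORA54, SCARNA22, SNORD15B and SNORA80B the K451R Dox library lay between -0.21 and 0.40 on the log2 scale from the mean of the other Veh libraries, whereas SNORA71D lay at -0.68, past 1.5-fold. Of 16 host genes of snoRNAs, SNHG1 was lower past 1.5-fold, with 192 CPM in Veh and 105 CPM in Dox and a log2 ratio of -0.88 (-0.98 to -0.77), and the other 15 had smaller negative ratios. Of all 9209 genes, 1.56% were lower past 1.5-fold and 4728 had negative ratios. Against the other Veh libraries, however, the median of the 16 was 0.26 in K451R Veh and -0.03 in K451R Dox. Under that control 11 of the 16 kept their sign. SNHG1 was near the other Veh libraries in K451R Veh (log2 difference 0.05) and was lower in Dox of each line, by ratios of -0.48, -0.57 and -0.74 in WT, K450R and K450RK451R.

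**Figure D4:**
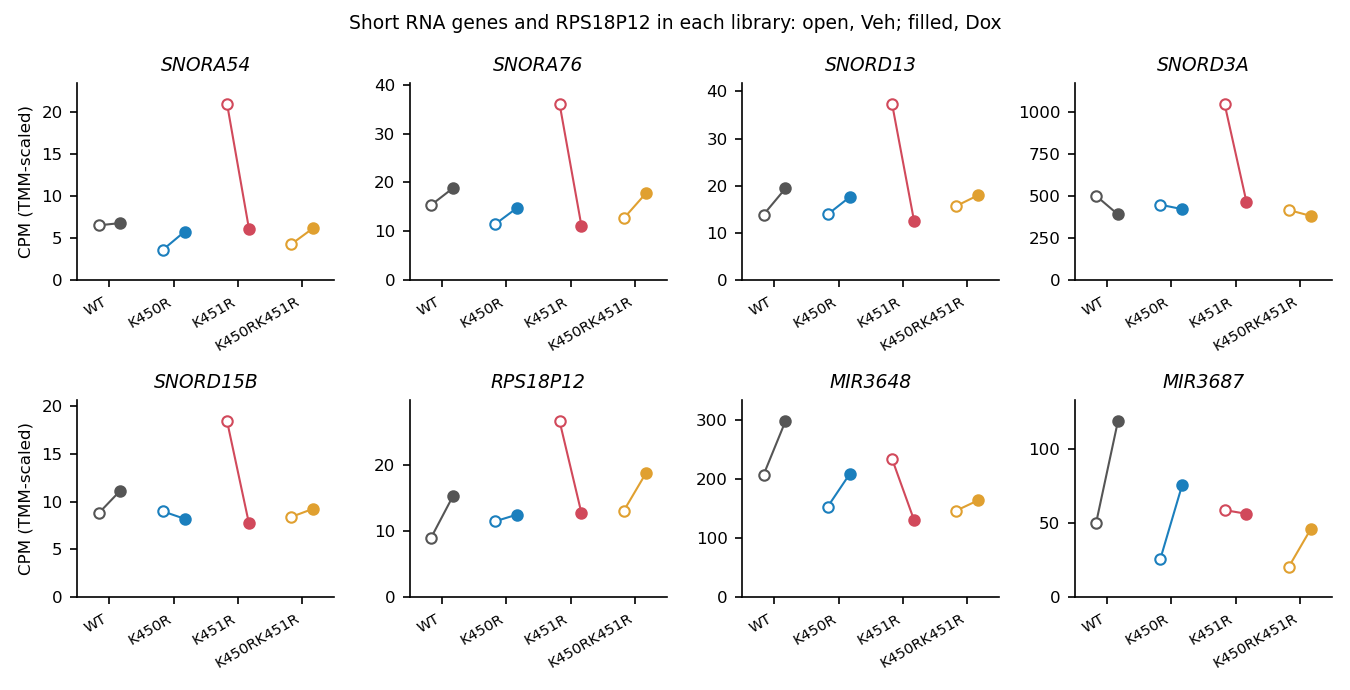
TMM-scaled CPM of 7 short RNA genes and of the pseudogene RPS18P12 in each of the 8 stable-line libraries, with open points for Veh and filled points for Dox, 1 library a point. The K451R Veh library is the highest of the 4 Veh libraries in all 8 panels, and for SNORD3A the K451R Dox library at 462 CPM is close to the other 6.

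Whether the response of K451R differed from that of the other lines was tested with edgeR's quasi-likelihood test on the 8 summed libraries, where the spread of the Dox effect among WT, K450R and K450RK451R serves as the error (2 residual degrees of freedom). Of 15652 genes tested, 0 were higher (0%) and 7 were lower (0.0447%) in K451R at an adjusted p under 0.05, while 445 had an unadjusted p under 0.05, 184 of them higher and 261 lower. The 7 were annotated as short RNA genes or a pseudogene, SNORA76 with the exception above: SNORA54, SNORA76, SNORD13, SNORD3A, MIR3648, MIR3687 and RPS18P12. SNORD3A, or U3, which acts in the cleavage of the ribosomal RNA precursor, had 8626 and 5697 counts and stood at 1045 CPM in Veh and 462 CPM in Dox, against 499, 446 and 415 CPM in Veh and 389, 420.0 and 379.7 CPM in Dox of WT, K450R and K450RK451R. Its K451R ratio lay -0.98 from the mean of the other lines on the log2 scale (edgeR adjusted p = 0.000197). Only its K451R Veh library stood out, and the U3 genes have several near-identical copies.

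MIR3648 and MIR3687 matched the unplaced contig GL000220.1, which carries ribosomal DNA, over their full length at 98.9% and 98.4% identity. Both are known to lie in the external transcribed spacer of the ribosomal RNA precursor, so reads of the precursor and of these loci could not be told apart. MIR3687 stood at 58.8 CPM in Veh and 56.2 CPM in Dox in K451R, a log2 ratio of -0.06 (-0.23 to 0.11), but at 49.9 and 119 CPM in WT, 25.7 and 75.8 CPM in K450R and 20.5 and 45.95 CPM in K450RK451R. It was thus higher in Dox of every line but K451R, and the K451R Veh library was the highest of the Veh libraries. The difference in log2 ratio was -1.38 (edgeR adjusted p = 0.000197). MIR3648 stood at 234 CPM in Veh and 131 CPM in Dox, a log2 ratio of -0.84 (-0.93 to -0.74), against 0.52, 0.44 and 0.16 in WT, K450R and K450RK451R, a difference of -1.22 (edgeR adjusted p = 0.000125). Its K451R Dox library was the lowest of the 4 Dox libraries. The pseudogene RPS18P12 stood at 26.5 CPM in Veh and 12.7 CPM in Dox (log2 ratio -1.07), its difference of -1.55 had an edgeR adjusted p of 0.0302, and its K451R Veh library was again above all others.

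No protein-coding gene passed this test. PPP1R10 differed from the mean of the other lines by 1.02, PRMT6 by 0.62, HILPDA by -0.63 and NEAT1 by -0.50, all with an edgeR adjusted p of 1. Of the 112 higher genes, 45 (40.2%) had a positive ratio in all 3 other lines and 1 a negative ratio in all 3, and of the 144 lower genes, 66 (45.8%) had a negative ratio in all 3 and 7 a positive one, against 8.69% of all genes with the opposite sign in all 3. Over all 9209 genes, 22.3% had the sign of K451R in all 3 other lines. Across these genes the K451R ratios had a Pearson correlation of 0.175 with those of WT, 0.325 with K450R and 0.402 with K450RK451R, and the Spearman values were 0.126, 0.277 and 0.366. These describe genes, not replicates, and the ratios share the scaling and the low counts. Among the 112 higher genes the median ratio was 0.69 in K451R and 0.10, 0.30 and 0.30 in WT, K450R and K450RK451R. Among the 144 lower genes it was -0.76, and -0.13, -0.28 and -0.32. Here the K451R values chose the genes and are therefore larger by the choice.

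Genes chosen without any K451R library give the converse view. In WT, K450R and K450RK451R together, 18 of 14601 genes (0.123%) were higher and 68 (0.466%) lower with Dox at an adjusted p under 0.05 by edgeR's quasi-likelihood test with line as a block. Without EHMT1, 15 of the 17 higher and 67 of the 68 lower genes had at least 200 counts in K451R. Of the 67 lower genes, all 67 had a negative ratio in K451R, 39 past 1.5-fold, against 1.56% of all genes, and the K451R median was -0.62 beside a fitted effect of -0.45 in the other lines. They included NEAT1 (fitted effect -1.42, edgeR adjusted p = 3.16e-09), MALAT1 (-0.85, 2.77e-09), HILPDA (-0.79, 1.26e-05), ELF3 (-0.62, 5.25e-06) and HSPA1B (-0.65, 0.00573). The fitted effect is a mean over lines that can differ. HSPA1B had ratios of 0.10, -1.15 and -1.15 in WT, K450R and K450RK451R, and HILPDA had -0.08 in WT. FAM193B and UAP1L1 had K451R ratios of -0.61 and -0.49 beside fitted effects of -0.76 and -0.60. The stress sensor GADD45B had K451R levels of 126 CPM in Veh and 67.7 CPM in Dox (log2 ratio -0.90), and the chemokine receptor CXCR4 had 31.4 CPM in Veh and 14.7 CPM in Dox (-1.09). In WT, K450R and K450RK451R the ratios were -0.10, -0.85 and -0.81 for GADD45B and -0.07, -0.50 and -1.30 for CXCR4. Both were named after their values were seen. CLU, which encodes the chaperone clusterin, had a K451R ratio of -0.14 (-0.43 to 0.15) and a fitted effect of -0.59. CTD-2228K2.7, the lower gene with fewer than 200 counts, had a K451R ratio of -0.06 (-0.54 to 0.44).

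Of the 15 higher genes, 12 had a positive ratio in K451R, 5 past 1.5-fold against 1.22% of all genes, and the K451R median was 0.44 beside a fitted effect of 0.57. The 5 were LRRC26 (1.01), C1orf116 (0.94), PMEPA1 (0.92), EFNB2 (0.81) and MYC (0.62). C1orf116, an androgen-regulated gene, stood at 29.9 CPM in Veh and 57.5 CPM in Dox in K451R, and EFNB2, a membrane ligand of Eph receptors, at 26.3 CPM in Veh and 46.2 CPM in Dox. The 3 with a negative ratio were MIR3687, MIR3648 and C20orf24 (-0.42, -0.76 to -0.08), and MIR3648 was the 1 that was lower past 1.5-fold. Against the other Veh libraries MIR3687 (0.92) and C20orf24 (0.59) were higher, past 1.5-fold, and MIR3648 was at -0.35. CTD-2328D6.1 had a K451R ratio of 0.26 beside 0.91, 2.74 and 0.08 in WT, K450R and K450RK451R. CLCN4 and AP000350.4, with under 200 counts in K451R, had ratios of 0.03 and 0.02 and counting intervals on both sides of 0.

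**Figure D5:**
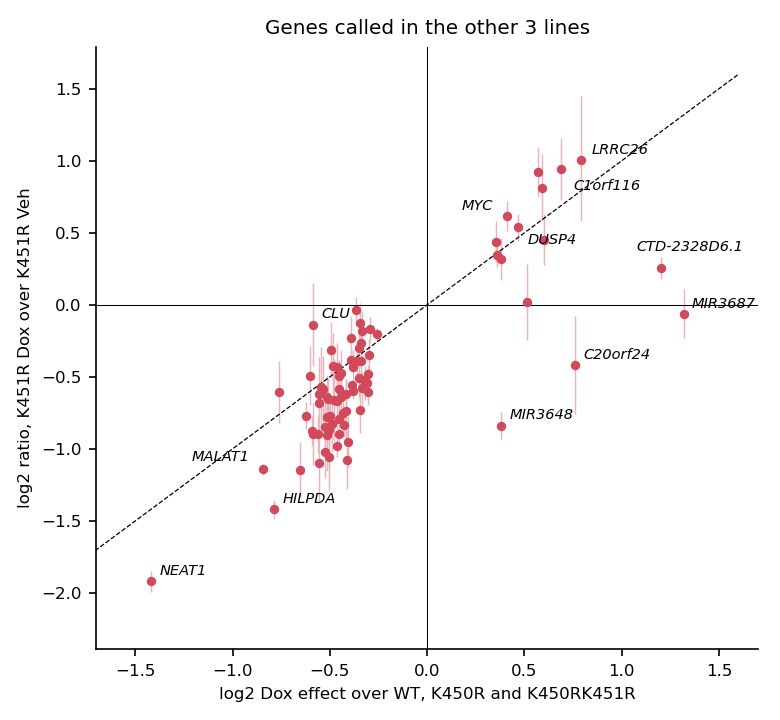
Log2 ratio of K451R Dox over Veh with its 95% counting interval (vertical axis) against the Dox effect fitted over WT, K450R and K450RK451R (horizontal axis) for the 82 genes called in those lines with at least 200 counts in K451R, without EHMT1; the dashed line marks equal values. All 67 genes on the left lie below 0, and on the right MIR3687, MIR3648 and C20orf24 lie below 0.

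The remaining lists held few or no genes past the threshold. None of 36 E2F and replication genes and none of 32 genes of G2 and mitosis was past 1.5-fold. Their medians were 0.12 and -0.09, against -0.01 over all genes. Ratios were positive for 21 of the 36 and negative for 26 of the 32, beside 4481 positive and 4728 negative over all genes. Against the other Veh libraries the K451R Dox medians were 0.14 and 0.01, and 27 of the 36 and 19 of the 32 genes kept their sign. The medians of WT, K450R and K450RK451R were 0.02, 0.11 and 0.13 for the first list and 0.02, -0.02 and -0.03 for the second. Total-count scaling moves these medians together with that of all genes. MCM7, a subunit of the replicative helicase, had a log2 ratio of 0.03 (-0.07 to 0.14), and E2F1 one of -0.10 (-0.28 to 0.09). The K451R ratio of CDK1, the kinase that drives mitosis, was -0.19. Of 14 other enzymes and factors of histone H3 lysine 9, SUV39H2 was the only one past 1.5-fold, with 0 against the other Veh libraries, and KDM3A, a demethylase of the same marks and a hypoxia target, had a ratio of -0.39 (-0.50 to -0.28). None of 11 genes of the LSD1 and REST complexes was past 1.5-fold, with 0.02 for KDM1A, which encodes LSD1. Of 25 ribosome biogenesis genes POLR1B alone was past 1.5-fold, and NPM1 and NCL, which encode major nucleolar proteins, had ratios of -0.15 and 0.01. Among 27 androgen response genes PMEPA1 alone was past 1.5-fold, and KLK3, KLK2 and TMPRSS2, classic androgen-induced genes, had ratios of -0.02, -0.14 and 0.28. None of the 23 sterol, 10 fatty acid, 20 endoplasmic reticulum chaperone, 20 p53, 30 ribosomal protein, 15 histone, 9 polyamine or 4 metallothionein and zinc genes tested was past 1.5-fold.

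Among genes that the study names for its stable lines, PPP1R14C, LIPT2 and FRMPD2 had 75, 38 and 157 counts in K451R. The study reports their activation for the K450RK451R mutant, not for K451R. Against the mean of the other Veh libraries, LIPT2 lay at 1.80 in K451R Veh and 2.17 in K451R Dox on the log2 scale. The log2 ratios of Dox over Veh in K451R for PPP1R14C, LIPT2 and FRMPD2 were 0.34 (-0.38 to 1.08), 0.37 (-0.66 to 1.46) and 0.12 (-0.36 to 0.60), all with intervals on both sides of 0, so a difference was not detectable at this depth. The study names ENO2 and SYP from its knockdown cells, where it reports that EHMT1 activated ENO2. ENO2, a neuronal enolase, stood at 296 CPM in Veh and 227 CPM in Dox of K451R, a ratio of -0.38 (-0.46 to -0.30). Its ratios in WT, K450R and K450RK451R were -0.33, -0.41 and -0.43. SYP, which encodes synaptophysin, had 4 and 6 counts in K451R.

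The labelled cell type was checked against its markers. The 10 luminal prostate genes, KLK3 among them, summed to 12491 CPM in K451R Veh and 12537 CPM in K451R Dox, and over the 8 libraries to 11820 to 13111 CPM. The 5 basal genes summed to 0.606 and 1.06 CPM, the 5 immune genes to 0.363 and 0.487 CPM and the 3 endothelial genes found to 4.24 and 5.03 CPM, with no gene of these lists at 200 counts. Of 6 stromal genes only COL1A1 reached 200 counts, with a log2 ratio of -0.13 (-0.36 to 0.10).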

How the data were processed

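Total RNA of stable LNCaP lines was made into stranded libraries and sequenced as single-end reads. The submitters' processing notes name FastQC 0.11.9, STAR 2.7.2, featureCounts 1.6.4 and hg19, and the deposited table holds raw counts per Ensembl gene. Whether counting used strand is not given in the sources used here. The table of knockdown samples was not used here. Columns of a condition were summed, and levels are CPM with TMM factors (edgeR 4.0.16, R 4.3.3). Dox against Veh in K451R is a log2 ratio with an exact conditional binomial 95% interval, an offset of 0.5 being used only where a library was at 0. Both tests were edgeR quasi-likelihood fits with Benjamini-Hochberg adjustment, and the fitting code was tested on simulated data. The planned replicate tests of the columns were kept as alternatives. Of 57773 gene IDs, 55538 matched the reference.

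The samples were taken by their labels, and the gene lists were written with earlier results of these data known. Named genes were EHMT1, EHMT2 and those the study names, the 12 highest and 12 lowest K451R ratios, up to 8 genes a direction in each test, and list members past 1.5-fold with up to 4 others of highest count. Alternatives covered scaling (DESeq2 1.42.0 size factors, upper quartile, total counts), count minimum, single columns, and limma 3.58.1 voom. Whether columns came from separate cultures is not given, so p-values measure only the spread between these samples.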

Additional observations from a re-analysis of the deposited data

Results flagged for a closer look

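The Dox effect of 7 genes differed between K451R and the mean of the other 3 lines in edgeR's quasi-likelihood test, by the following log2 differences. SNORA54 differed by -2.16, SNORA76 by -2.09 and SNORD13 by -1.90. RPS18P12 differed by -1.55 and MIR3687 by -1.38. MIR3648 differed by -1.22 and SNORD3A by -0.98. For all 7, K451R Veh was above the other 3 Veh libraries, and the part of that 1 library in the differences cannot be told apart from the effect of induction.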

How the results depend on the processing

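With 1 library a side, the K451R ratios have no replicate error, and low counts set the number of genes past a fold. Counts higher and lower past 1.5-fold were 295 and 84 with total counts only, 480 and 404 from at least 50 counts, 5 and 37 from at least 1000, and 2111 and 2001 with no minimum. Past 2-fold they were 18 and 14, 92 and 87, 1 and 5, and 1266 and 1282. Total counts gave 3 hypoxia genes lower and an EHMT1 log2 ratio of 3.47. The snoRNA genes lower were 21, 1 and 52 under the 3 minimums, and mitochondrial genes 5 from at least 1000 counts. The minimum also changes how many of these genes are tested, so these counts are not shares. Leaving out each K451R column gave 109 to 203 higher and 153 to 183 lower past 1.5-fold, with 203 and 201 higher without Veh column 1 or 2, and 6 to 16 higher past 2-fold, with 6 without Dox column 1 or 2. The cause was not tested.

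With the other lines' Veh as control, chosen after seeing the data, 180 genes were higher, but only 48 of the 112 higher and 71 of the 144 lower genes were past 1.5-fold in the same direction. The lower genes included 1 mitochondrial and 3 snoRNA genes, and EHMT1 was at 3.13. Of 198 named ratios 28 changed sign. Those past 1.5-fold before were RP11-390F4.8 (to -0.25), SNORA54 (to 0.40), SNORD3A (to 0.032) and RPS18P12 (to 0.20), and MIR3687 went to 0.92 and C20orf24 to 0.59. The cause was not tested.

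Columns taken as replicates gave 194 higher and 209 lower genes past 2-fold without a block, and 198 and 211 with the replicate block. These were genes with an unadjusted p under 0.05 by edgeR's quasi-likelihood test, of 13765 tested without the minimum of 200 counts. Among genes with at least 200 counts there were 11 higher and 22 lower in both settings, the same numbers as in the main result. Same-numbered columns of K451R did not deviate together (correlation 0.0099), so they share only a number. The test of K451R against other lines gave 5 to 9 lower and 0 higher genes over all alternatives, with 5 by DESeq2 and 5 of the 7 kept without K450RK451R.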
